A study of Mus musculus with 16 samples.

Results

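The genes described here are 10 transcripts that memory and effector T cells carry at higher levels than naive cells: the S100 genes S100a4, S100a6, S100a10 and S100a11, the annexin Anxa2, the galectins Lgals1 and Lgals3, the intermediate filament gene Vim, the LIM protein gene Crip1 and the scaffold gene Ahnak. They were taken by symbol from the expression tables of CD4+ FOXP3+ regulatory T cells (Treg) and CD4+ FOXP3- conventional T cells (Tcon). Of the 10, 9 were found in each table, among 11067 genes in Treg and 11171 in Tcon; S100a11 was not analysed here. The study sequenced total RNA of T cells from spleen and lymph node of mice given vehicle or venetoclax, a drug that blocks the survival protein BCL-2.

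There were 4 groups with 4 libraries each, 16 in all: Treg of mice given 50 mg/kg venetoclax, Treg of mice given vehicle, Tcon of mice given 50 mg/kg venetoclax, and Tcon of mice given vehicle. Treatment lasted 14 days. All mice, treated or not, were of strain B6.Cg-Foxp3tm2Tch/J, a reporter line in which GFP is expressed together with Foxp3, with genotype WT. Age, sex, route and schedule of dosing, the sort gates and whether a library held cells of 1 animal are not given in the labels, which call the libraries biological replicates. Treg and Tcon libraries carry shared codes, so number 1 with venetoclax names a Treg and a Tcon library. The 2 tables were normalized separately.

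S100 proteins are small calcium sensors that bind target proteins when calcium rises. S100A10 is the exception, since it no longer needs calcium and joins annexin A2, a calcium-dependent membrane-binding protein, in a complex at the inner face of the plasma membrane to which the giant scaffold protein AHNAK also binds. Galectins bind sugars on surface glycoproteins and tune T cell receptor signalling and death, vimentin builds the filament cage that lymphocytes fold away as they migrate, and high transcript levels of many of these genes accompany antigen experience in CD4 T cells.

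The libraries held 21335006 to 25027038 reads in genes of the table for Treg and 22982210 to 24960570 for Tcon. Foxp3, which marks Treg, ran from 898 to 920 CPM (reads scaled to a fixed total per library) in Treg with venetoclax and from 747 to 899 CPM in Treg with vehicle, against 29.8 to 31.9 CPM in Tcon with venetoclax and 27.3 to 32.4 CPM in Tcon with vehicle. Cd4 was at 729.6 CPM or more in all libraries. Of 40 markers of other cells, 17 were in the Treg table and 18 in the Tcon table, and their summed level was 44.2 to 97.8 CPM in Treg with venetoclax, 45.7 to 63.8 CPM in Treg with vehicle, 50.1 to 95.1 CPM in Tcon with venetoclax and 56.7 to 75.6 CPM in Tcon with vehicle. Y-linked reads set some codes apart: in Treg, Ddx3y stood at 1695, 5539, 2872 and 0.96 normalized counts in venetoclax libraries 1 to 4, and at 0, 5326, 0.974 and 0 in vehicle libraries 1 to 4. In both subsets Ddx3y was thus clearly expressed in venetoclax libraries 1, 2 and 3 but, with vehicle, in library 2 alone. Y-linked expression is unbalanced between the treatments in every comparison here, and the 2 cannot be fully told apart. Libraries 1 and 3 with venetoclax lie between the rest in both subsets, so results are also given without them.

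Among the 9 genes measured, 5 passed the test in at least 1 subset: Ahnak, S100a4, S100a6 and Crip1 in Treg, and Vim in Tcon. The 200 bases before the start of each of these 5 genes are shown because they are the sequence nearest to where their transcripts begin; they come from RefSeq (GRCm38.p6, plus strand, 5′ to 3′). Capitals mark 4 short motifs on either strand. The TATA box was searched as TATAAA. The GC box, to which factors of the SP family bind, was searched as GGGCGG. For AP-1, the dimer of FOS and JUN proteins, the letters were TGANTCA. Those of Krüppel-like factors were CACCC, and matches of different motifs did not overlap in these 5 windows. The windows are chr19:8989084-8989283 for Ahnak, chr3:90603570-90603769 for S100a4, chr3:90612694-90612893 for S100a6, chr12:113151812-113152011 for Crip1 and chr2:13574111-13574310 for Vim.
Ahnak: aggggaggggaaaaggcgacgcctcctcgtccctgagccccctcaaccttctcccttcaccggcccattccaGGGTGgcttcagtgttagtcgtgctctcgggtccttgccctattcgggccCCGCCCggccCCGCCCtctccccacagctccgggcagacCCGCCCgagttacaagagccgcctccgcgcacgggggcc
S100a4: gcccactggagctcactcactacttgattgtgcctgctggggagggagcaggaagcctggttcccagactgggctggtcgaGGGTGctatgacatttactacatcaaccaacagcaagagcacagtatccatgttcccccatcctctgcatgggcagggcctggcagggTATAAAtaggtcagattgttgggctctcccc
S100a6: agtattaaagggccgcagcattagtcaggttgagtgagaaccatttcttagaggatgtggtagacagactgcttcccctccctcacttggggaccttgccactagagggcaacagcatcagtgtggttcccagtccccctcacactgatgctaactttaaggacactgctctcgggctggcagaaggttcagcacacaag
Crip1: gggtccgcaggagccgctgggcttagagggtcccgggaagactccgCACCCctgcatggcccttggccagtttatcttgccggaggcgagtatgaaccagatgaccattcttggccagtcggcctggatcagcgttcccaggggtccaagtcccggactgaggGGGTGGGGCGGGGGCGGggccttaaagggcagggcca
Vim: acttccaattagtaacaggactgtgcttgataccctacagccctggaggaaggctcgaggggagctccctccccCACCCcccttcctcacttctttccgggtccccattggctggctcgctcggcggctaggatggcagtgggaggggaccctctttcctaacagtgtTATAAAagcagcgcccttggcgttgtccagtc

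The letters TATAAA occurred once each before S100a4 and Vim, and 10% of the 32851 RefSeq windows of this length held them. GC box letters occurred 3 times before Ahnak and 2 times before Crip1, and 31.0% of all windows held them. CACCC occurred once each before Ahnak, S100a4 and Vim and 2 times before Crip1, with 1 of the 2 Crip1 matches lying directly before a GC box; 45.5% of all windows held it. None of the 5 windows held TGANTCA, which was in 5.5% of all windows, and that of S100a6 held none of the 4 motifs. S100a4 (Entrez 20198; chromosome 3, 90603770 to 90606045) and S100a6 (Entrez 20200; 90612894 to 90614414) are close neighbours on the plus strand, with 6848 bases between them that hold S100a5, not analysed here. S100a10 (Entrez 20194; 93555117 to 93564645) lies on the same chromosome more than 2.91 Mb away, and the other members measured are on other chromosomes.

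**Figure D1:**
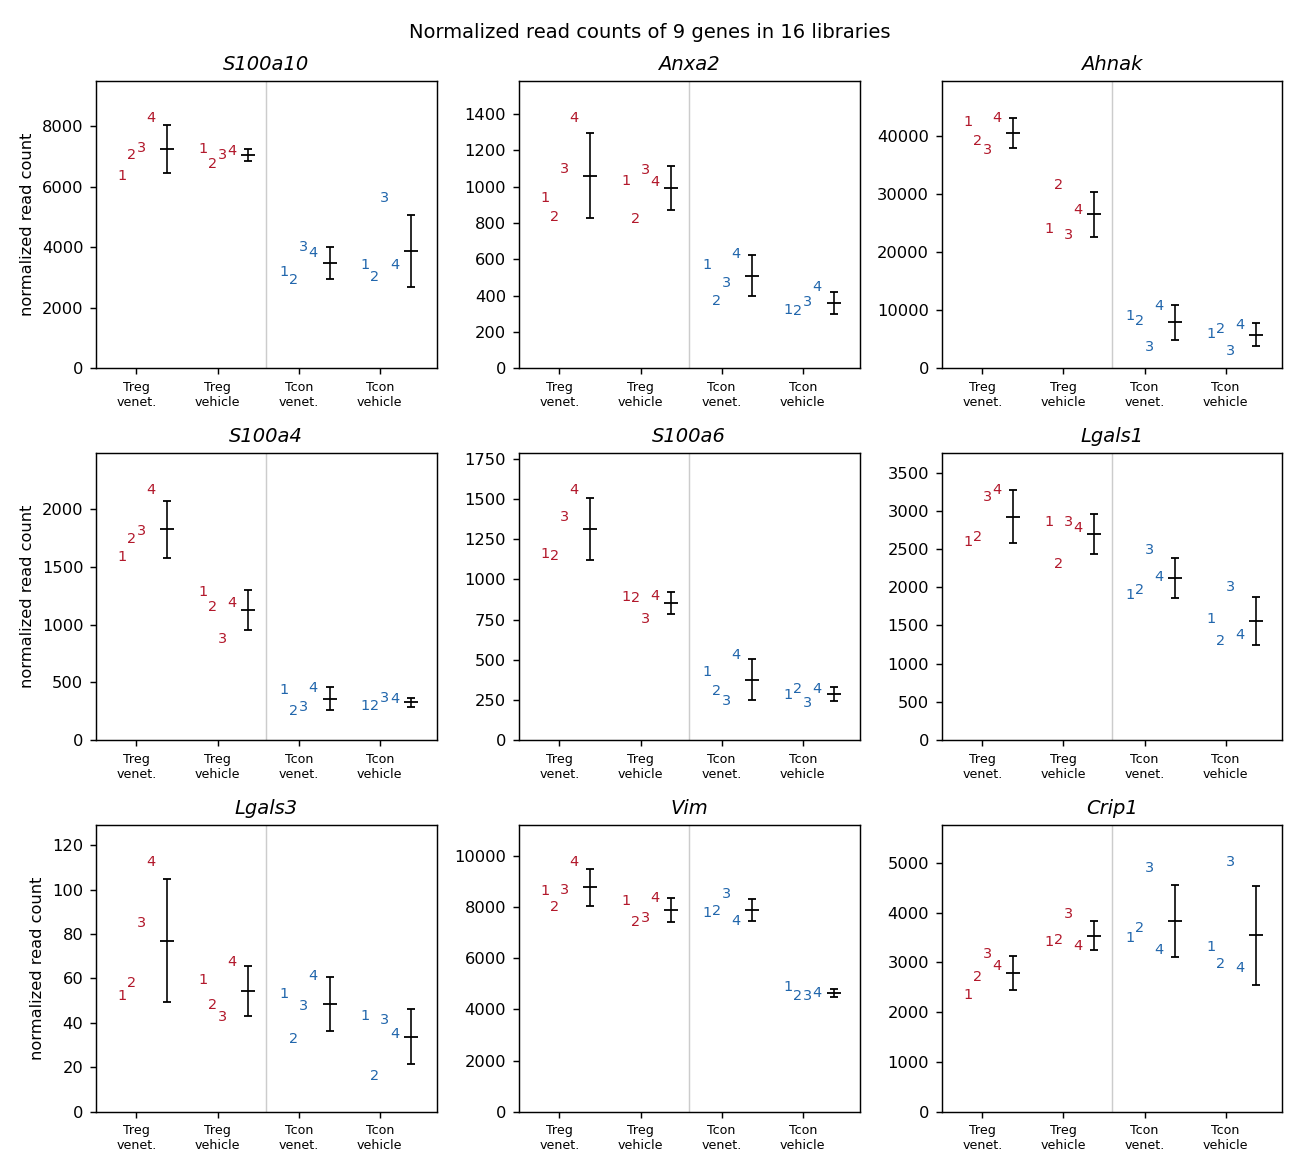
Normalized read counts (y axis, linear from 0) of the 9 measured genes in Treg (red) and Tcon (blue), with venetoclax or vehicle; each numeral is 1 library, placed at its value, and bars give the mean ± SD of 4 libraries. Ahnak, S100a4 and S100a6 lie higher in all venetoclax Treg than in all vehicle Treg libraries and Crip1 lower, and Vim lies higher in all venetoclax Tcon than in all vehicle Tcon libraries; Treg and Tcon values come from separately normalized tables.

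The first comparison sets Treg of venetoclax-treated mice against Treg of vehicle-treated mice and asks which of these transcripts differ in regulatory cells after 14 days of BCL-2 inhibition. Ahnak, S100a4 and S100a6 rose and Crip1 fell, while S100a10, Anxa2, Lgals1, Lgals3 and Vim did not pass the test. Thus 4 of 9 measured members were called at a limma adjusted p of 0.05 over all genes, where 19.6% of the 11067 genes of the table were called; 10.7% were called higher and 8.81% lower. With upper quartile scaling 969 genes were called higher and 1348 lower in Treg, against 1189 and 975 with the deposited scaling, and the members' calls did not change. The same 4 were the members whose groups did not overlap, 3 higher and 1 lower with venetoclax; 12% of all genes lie higher and 10.7% lower in every venetoclax library. The median log2 change of the 9 members was 0.15, and that of all genes was 0.0048. In bulk libraries a change in the make-up of the sorted cells and a change in RNA per cell cannot be told apart.

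Ahnak (Entrez 66395; chromosome 19, 8989284 to 9076935), the scaffold that binds the S100A10 and annexin A2 complex, stood at 42447, 39124, 37556 and 43003 normalized counts in venetoclax Treg libraries 1 to 4, against 24039, 31565, 23017 and 27317 in vehicle Treg libraries 1 to 4. The lowest venetoclax library was above the highest vehicle library, which was library 2. The means were 40533 ± 2621 with venetoclax and 26485 ± 3852 with vehicle (SD, n = 4 each), a log2 change of 0.62 (SE 0.09, limma adjusted p = 0.000643).

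S100A4, which binds the heavy chain of non-muscle myosin IIA and is linked to cell motility, had the largest change among the members in Treg. S100a4 was at 1586, 1743, 1809 and 2164 normalized counts in venetoclax Treg and at 1287, 1155, 877 and 1188 in vehicle Treg. The groups did not overlap, and venetoclax library 4 was highest and vehicle library 3 lowest. S100a4 averaged 1825 ± 244 with venetoclax and 1127 ± 175 with vehicle (SD, n = 4 each), a 1.63-fold change (log2 0.70, SE 0.11, limma adjusted p = 0.0011). Exons of S100a4 overlap those of a predicted gene on the same strand, Gm42674, and how such reads were split is not given.

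S100a6, its neighbour, encodes calcyclin, a calcium sensor of proliferating cells. It was at 1161, 1149, 1389 and 1555 normalized counts in venetoclax Treg and at 893, 882, 754 and 894 in vehicle Treg. Vehicle library 3 was again lowest, the other 3 vehicle libraries were close together, and no vehicle library reached a venetoclax library. The means of 1314 ± 195 with venetoclax and 856 ± 68.4 with vehicle (SD, n = 4 each) correspond to a log2 change of 0.61 (SE 0.094, limma adjusted p = 0.00098).

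Crip1 (Entrez 12925; chromosome 12, 113152012 to 113153879), a small cysteine-rich LIM domain protein abundant in memory T cells, went the other way. Its values were 2353, 2705, 3164 and 2931 normalized counts in venetoclax Treg and 3413, 3449.7, 3973 and 3322 in vehicle Treg. All 4 venetoclax libraries were below all 4 vehicle libraries, and library 3 was the highest of each group. Crip1 fell to 2788 ± 345 with venetoclax, against 3539 ± 294 with vehicle (SD, n = 4 each), a log2 change of -0.35 (SE 0.082, limma adjusted p = 0.0104).

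These 4 calls held in 18 of 18 other settings, with log2 changes of 0.56 to 0.71 for Ahnak, 0.59 to 0.80 for S100a4, 0.52 to 0.68 for S100a6 and -0.41 to -0.27 for Crip1. Without venetoclax libraries 1 and 3 the log2 changes were 0.64 for Ahnak, 0.80 for S100a4, 0.65 for S100a6 and -0.33 for Crip1, with limma adjusted p of 0.0129, 0.0105, 0.0128 and 0.0365. In the authors' deposited table the same 4 members have an adjusted p under 0.05, and 20.5% of all genes there do.

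Of the 5 members that did not pass in Treg, Vim was nearest to the threshold. Vim stood at 8637, 8003, 8663 and 9758 normalized counts in venetoclax Treg and at 8221, 7434, 7558 and 8365 in vehicle Treg. The groups overlapped, since the lowest venetoclax library lay below 2 of the vehicle libraries. The log2 change was 0.15 (SE 0.063, limma adjusted p = 0.115), with a 95% interval of 0.014 to 0.28. With the Ddx3y level as a covariate, Vim (limma adjusted p = 0.0197) and Lgals1 (limma adjusted p = 0.042) passed as well, in a fit that called 13.8% of all genes.

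S100a10, the partner of annexin A2, was at 6338, 7043, 7294 and 8255 normalized counts in venetoclax Treg and at 7239.9, 6761, 7034 and 7168 in vehicle Treg. The vehicle libraries lay within the range of the venetoclax libraries. Its log2 change of 0.03 had a 95% interval of -0.11 to 0.18 (limma adjusted p = 0.787). For Anxa2 the values were 938, 833, 1098 and 1376 normalized counts in venetoclax Treg and 1031, 821, 1094 and 1026 in vehicle Treg (log2 0.08, 95% interval -0.20 to 0.36, limma adjusted p = 0.713). Both changed sign without venetoclax library 4 (S100a10 -0.035, Anxa2 -0.055). So in Treg the scaffold Ahnak rose while neither gene of the complex it binds passed the test; whether the Ahnak change differs from theirs was not tested.

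Galectin-1 and galectin-3 transcripts did not pass either. Lgals1 (Entrez 16852; chromosome 15, 78926725 to 78930465), which encodes a galectin that Treg can release, was at 2589, 2659, 3181 and 3268 normalized counts in venetoclax Treg and at 2857, 2301, 2849.8 and 2773 in vehicle Treg (log2 0.12, SE 0.086, limma adjusted p = 0.373). Lgals3 (Entrez 16854; chromosome 14, 47373860 to 47386167), which encodes a galectin that binds glycoproteins around the T cell receptor, was the lowest member, at 52.3, 58.0, 85.0 and 112 normalized counts in venetoclax Treg and 59.4, 47.9, 42.8 and 67.5 in vehicle Treg. Its log2 change of 0.45 had an SE of 0.24 (limma adjusted p = 0.201), so at this spread even a change of that size did not pass.

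The second comparison makes the same contrast in Tcon. Vim rose with venetoclax, and the other 8 measured members did not pass the test. That is 1 of 9 members at a limma adjusted p of 0.05, where 6.91% of the 11171 genes of the table were called (3.92% higher and 2.99% lower), so the count is close to the background. Vim was also the 1 member whose groups did not overlap, where 8.78% of all genes lie higher and 7.47% lower in every venetoclax library. The median log2 change of the members was 0.42, against 0.0022 for all genes. Changes above 0 numbered 8 of 9 in Tcon and 8 of 9 in Treg, and the share over all genes was not counted.

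Vim (Entrez 22352; chromosome 2, 13574311 to 13582826) stood at 7769, 7855, 8493 and 7469 normalized counts in venetoclax Tcon, against 4873, 4536, 4509 and 4641 in vehicle Tcon. The groups are far apart and tight, with a coefficient of variation of 5.45% with venetoclax and 3.57% with vehicle. Vim averaged 7897 ± 431 with venetoclax and 4640 ± 165 with vehicle (SD, n = 4 each), 1.70-fold higher (log2 0.77, SE 0.065, limma adjusted p = 0.000513). The call held in 18 of 18 other settings, and without venetoclax libraries 1 and 3 the log2 change was 0.72 (limma adjusted p = 0.0209).

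The libraries numbered 3 of Tcon stand apart in several members, with the drug and without it. Ahnak was at 9006, 8077, 3643 and 10750.4 normalized counts in venetoclax Tcon and at 5887, 6705, 3026 and 7455 in vehicle Tcon. Library 3 was the lowest of each group, and the groups overlapped. The log2 change was 0.42 (SE 0.35, limma adjusted p = 0.532), and the coefficients of variation were 38.5% with venetoclax and 33.6% with vehicle. Taken by number, venetoclax over vehicle ratios of Ahnak were 1.53, 1.21, 1.2 and 1.44.

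Lgals1 was at 1893, 1965, 2488 and 2131 normalized counts in venetoclax Tcon and at 1578, 1289, 1999 and 1372 in vehicle Tcon. Library 3 was the highest of each group, and only vehicle library 3 reached into the range of the venetoclax libraries. The log2 change of Lgals1 was 0.45 (SE 0.14, limma adjusted p = 0.0727), and without vehicle library 3 it was 0.58 and passed (limma adjusted p = 0.00415), in a fit that called 11.1% of all genes. The authors' deposited table gives Lgals1 an adjusted p of 0.0366, and it has 2 members under 0.05, Vim and Lgals1, where 11.3% of all genes are.

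Anxa2 (Entrez 12306; chromosome 9, 69453683 to 69491792) was at 567, 372, 469.8 and 631 normalized counts in venetoclax Tcon and at 319, 314, 362 and 446 in vehicle Tcon. The groups overlapped. Taken by number, which the labels do not link between treatments, venetoclax over vehicle ratios of Anxa2 were 1.18 to 1.78. Its log2 change was 0.49 (SE 0.17, limma adjusted p = 0.115). Exons of Anxa2 overlap a predicted gene on the opposite strand, Gm16144, and reads of the 2 genes cannot be told apart where counting ignores strand.

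The labels do not link venetoclax and vehicle libraries of the same number, and a replicate block in Tcon rests on correlations within these data. Some unmatched Tcon numbers also exceed the limit given under processing, and the numbers in Treg do not meet the criterion. With the replicate number as a block, 4 members passed in Tcon: Vim, Lgals1 (limma adjusted p = 0.00165), Ahnak (0.00175) and Anxa2 (0.00743), all higher. That fit called 1880 genes, 16.8% of the table. In the same fit 2 markers of other cells were called higher in Tcon, Itgam, a myeloid integrin (log2 0.39, limma adjusted p = 0.0283), and Hbb-bs, a beta globin (log2 1.37, limma adjusted p = 0.0391); their part in the members' calls was not tested. DESeq2 on the recovered reads called 3 members, Vim, Lgals1 (DESeq2 adjusted p = 0.0373) and Anxa2 (0.0485), and 12.3% of all genes. Without both libraries numbered 3, limma called Vim, Lgals1 (limma adjusted p = 0.00197) and Ahnak (0.0124), and 12.9% of all genes.

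The remaining members gave no call in Tcon under any of these settings. S100a4, called in Treg, was at 435, 254, 286 and 447 normalized counts in venetoclax Tcon and at 292, 293, 362 and 358 in vehicle Tcon. The vehicle libraries lie inside the range of the venetoclax libraries (log2 0.09, 95% interval -0.32 to 0.50, limma adjusted p = 0.833), and the sign turned without venetoclax library 1 or 4. S100a6 was at 425, 302, 242 and 530.3 normalized counts in venetoclax Tcon and at 279, 319, 229 and 319 in vehicle Tcon (log2 0.33, SE 0.22, limma adjusted p = 0.417). In both genes venetoclax libraries 1 and 4 were the highest of the 8.

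S100a10 was the 1 member with a change below 0 in Tcon. It had 3168, 2900.1, 3998 and 3811 normalized counts in venetoclax Tcon and 3413, 3002, 5628 and 3397 in vehicle Tcon. Vehicle library 3 was far above the rest, and without it the log2 change of -0.12 (limma adjusted p = 0.761) became 0.075. Crip1 was at 3497, 3687, 4895 and 3257 normalized counts in venetoclax Tcon and at 3319, 2973, 5016 and 2884 in vehicle Tcon (log2 0.13, SE 0.18, limma adjusted p = 0.733), with library 3 again the highest of each group. Lgals3 ran from 32.7 to 61.2 normalized counts in venetoclax Tcon and from 16 to 43.3 in vehicle Tcon (log2 0.57, SE 0.32, limma adjusted p = 0.336).

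**Figure D2:**
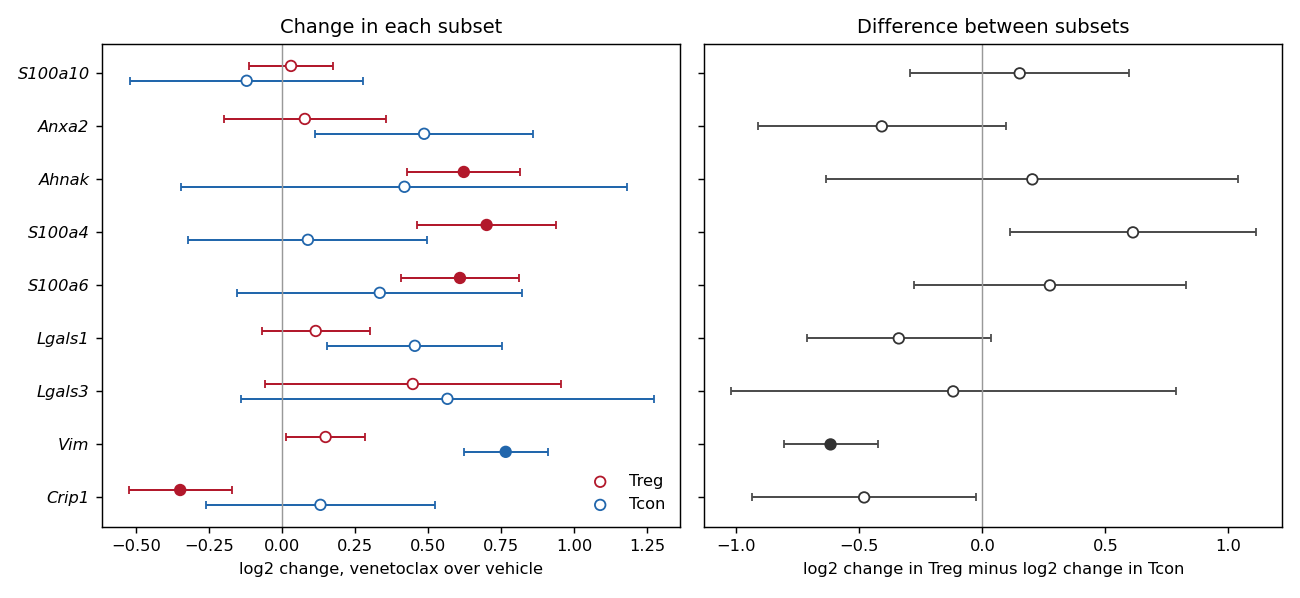
Left, log2 change of venetoclax over vehicle (x axis) of each gene in Treg (red) and Tcon (blue); right, log2 change in Treg minus that in Tcon. Points are limma estimates from 4 libraries a group, bars are 95% intervals and filled points have an adjusted p under 0.05 over all genes: Ahnak, S100a4, S100a6 and Crip1 in Treg, Vim in Tcon, and Vim for the difference.

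The test of the difference asks whether a member responded differently in the 2 subsets, over 16 libraries and the 10774 genes in both tables. Vim passed, with a response lower in Treg than in Tcon by 0.62 on the log2 scale (Treg 0.15, Tcon 0.77; SE 0.091, limma adjusted p = 0.00274). It was 1 of 9 members, where 1.3% of all genes were called (0.965% lower and 0.334% higher). With the code shared by a Treg and a Tcon library as a block, 389 genes were called, 3.61% of them all, and Vim was again the 1 member (limma adjusted p = 0.00275). Without venetoclax libraries 1 and 3 the difference of Vim was -0.56 and no longer passed (limma adjusted p = 0.166), in a fit that called 4 genes, 0.0371% of all.

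The S100 genes that were called in Treg alone are not shown to respond differently between subsets. For S100a4 the difference was 0.61 (Treg 0.70, Tcon 0.09; 95% interval 0.11 to 1.11, limma adjusted p = 0.333). For S100a6 it was 0.27 (95% interval -0.28 to 0.83, limma adjusted p = 0.843) and for Ahnak 0.20 (-0.63 to 1.04, limma adjusted p = 0.963). The wide intervals of the last pair come with the large spread of their Tcon libraries. Crip1 had a difference of -0.48 (95% interval -0.94 to -0.024, limma adjusted p = 0.458), and without the libraries numbered 3 it was -0.54 and passed (limma adjusted p = 0.0256), in a fit that called 1.1% of all genes. Lgals1 (-0.34), Anxa2 (-0.41), S100a10 (0.15) and Lgals3 (-0.12) had limma adjusted p of 0.561, 0.636, 0.928 and 0.987. These p-values take Treg and Tcon libraries of a code as independent. With the shared code as a block, limma adjusted p was 0.0656 for Crip1, 0.0917 for Lgals1, 0.130 for Anxa2 and 0.157 for S100a4. It was 0.529 or more for S100a6, S100a10, Ahnak and Lgals3, so none of these members passed there either.

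Levels of the 2 subsets are given as CPM and were not tested, because the tables were normalized separately. With venetoclax, 6 of the 9 members were higher in all Treg libraries than in all Tcon libraries and 1, Crip1, was lower in all; 30.2% of the 10774 genes lie above and 18.3% below in this way. With vehicle, 7 of 9 were higher in all Treg libraries and none lower, where 24.5% of genes lie above and 12% below. These members thus belong mostly to the genes that are higher in Treg, with or without the drug.

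By ratio of means, Ahnak had the widest gap between the subsets with vehicle and was level with S100a4 with venetoclax. It was at 1726 ± 115 CPM in Treg and 336 ± 132 CPM in Tcon with venetoclax (SD, n = 4 each), 5.14-fold, and at 1117 ± 171 CPM in Treg and 246 ± 88.2 CPM in Tcon with vehicle, 4.54-fold. Within a code the Treg over Tcon ratio ran from 3.99 to 10.6 with venetoclax and from 3.59 to 7.91 with vehicle. S100a4 was at 77.8 ± 11.2 CPM in Treg and 15.1 ± 4.4 CPM in Tcon with venetoclax, 5.14-fold, and at 47.5 ± 7.8 CPM in Treg and 13.7 ± 1.4 CPM in Tcon with vehicle, 3.46-fold. S100a6 stood 3.5-fold higher in Treg with venetoclax and 2.97-fold with vehicle, Anxa2 2.09-fold and 2.75-fold, S100a10 2.09-fold and 1.84-fold, and Lgals1 1.39-fold and 1.73-fold.

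Vim differed between the subsets with vehicle and overlapped with venetoclax. With venetoclax it was at 364, 339, 370 and 420 CPM in Treg and at 330, 335, 354 and 322 CPM in Tcon. With vehicle it was at 349, 316, 313 and 352 CPM in Treg and at 207, 197, 180 and 199 CPM in Tcon. Vim in 3 of the 4 venetoclax Tcon libraries lay within the range of vehicle Treg, with library 3 just above it, and the Treg over Tcon ratio of means was 1.11 with venetoclax and 1.70 with vehicle.

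Crip1 was the member that sat lower in Treg. With venetoclax it was at 99.2, 115, 135 and 126 CPM in Treg and at 149, 157, 204 and 141 CPM in Tcon, without overlap (ratio of means 0.731). With vehicle it was at 145, 147, 165 and 140 CPM in Treg and at 141, 129, 200 and 124 CPM in Tcon, which overlapped (ratio 1.00). Lgals3 overlapped between subsets with either treatment, at 3.28 ± 1.2 CPM in Treg and 2.06 ± 0.53 CPM in Tcon with venetoclax and at 2.29 ± 0.48 CPM in Treg and 1.42 ± 0.50 CPM in Tcon with vehicle (SD, n = 4 each).

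**Figure D3:**
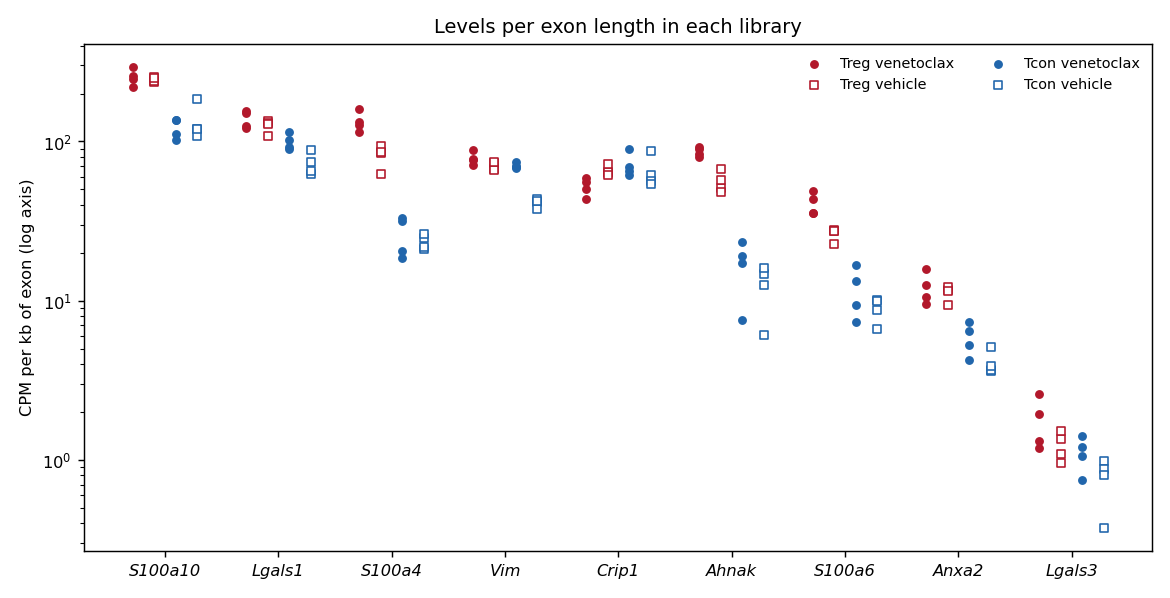
Level per exon length (CPM per kb of exon, log axis) of each gene in every library, for Treg (red) and Tcon (blue) with venetoclax (filled circles) or vehicle (open squares), genes ordered by their mean in vehicle Treg. Ahnak, S100a4 and S100a6 show the widest space between the subsets, Vim of venetoclax Tcon lies level with Treg, and Lgals3 is lowest in all 4 groups.

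Levels per exon length were divided by the union of all annotated exons of a gene, so the order of the members depends on that length. For Crip1 the union is 2280 bases, longer than its RefSeq span. Before this division Crip1 (163 CPM) was above S100a10 (147 CPM) in venetoclax Tcon. Per length of exon, S100a10 had the highest mean of the members in every group, at 254 ± 30.3 CPM per kb in venetoclax Treg, 245 ± 7.35 in vehicle Treg, 122 ± 17.7 in venetoclax Tcon and 133 ± 35.0 in vehicle Tcon (SD, n = 4 each). Lgals1 came next in each, at 138, 126, 99.6 and 72.5 CPM per kb in the same 4 groups. The order below them differs by subset: in Treg the third level was that of S100a4 (133 CPM per kb with venetoclax, 81.4 with vehicle), while in Tcon it was that of Crip1 (71.3 and 65.2), with S100a4 further down (25.9 and 23.5). In venetoclax Tcon the third place is not settled, since the ranges of Crip1 and Vim (70.7 CPM per kb) overlapped. Ahnak came next after S100a4 in venetoclax Treg (86.6 CPM per kb) and after Crip1 in vehicle Treg (56.0). In vehicle Treg the ranges of neighbours overlapped from S100a4 through Vim and Crip1 to Ahnak, so their order there is not settled beyond the spread; in venetoclax Treg, S100a4 and Ahnak were apart while Lgals1 and S100a4, Ahnak and Vim, and Crip1 and S100a6 overlapped. Lgals3, the lowest, was at 1.77 CPM per kb in venetoclax Treg, 1.23 in vehicle Treg, 1.11 in venetoclax Tcon and 0.763 in vehicle Tcon, apart from Anxa2 above it in each group. In Tcon, Lgals1 and Crip1 overlapped with either treatment, as did Ahnak and S100a6, and with venetoclax so did S100a10 and Lgals1, and S100a4 and Ahnak.

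Single libraries were high or low in many members together. In Treg, venetoclax library 4 was the highest of its group in 8 of the 9 members, with Crip1 the exception, and venetoclax library 1 was the lowest in 5. That library 4 also had the highest summed CPM of erythroid markers (33.8, the other venetoclax Treg libraries 0.0825 to 5.78) and of myeloid markers (11.7, the others 4.83 to 5.91). Vehicle Treg library 4 was likewise the highest of its group in erythroid markers (12.59, the others 0.1211 to 0.991) and myeloid markers (9.67, the others 5.975 to 8.277). It was the highest of its group in 3 members. Without venetoclax library 4, Ahnak (log2 0.59), S100a4 (0.62), S100a6 (0.52) and Crip1 (-0.38) still passed, with limma adjusted p of 0.00263, 0.00317, 0.00229 and 0.0159. In Tcon, venetoclax library 4 was highest in 5 members, Ahnak, Anxa2, Lgals3, S100a4 and S100a6, and vehicle library 3 was highest in 4 and lowest in 3. That venetoclax library 4 of Tcon also had the highest summed CPM of NK and CD8 markers (49.8, the other venetoclax Tcon libraries 31.6 to 33.0), of the erythroid marker Hbb-bs (7.08, the others 0.21 to 0.841) and of myeloid markers (19.99, the others 11.3 to 18.4). Vehicle Tcon library 4 was likewise the highest of its group in Hbb-bs (1.493, the others 0.087 to 0.3764) and myeloid markers (15.32, the others 11.96 to 14.01). It was not the highest in NK and CD8 markers, and it was the highest in 2 members. None of the markers of other cells passed limma's test in Treg (6 with an unadjusted p under 0.05) or in Tcon (2); edgeR called none, and DESeq2 called 1 in Treg, the myeloid marker Cd68, which was lower, where it called 21.9% of all genes. With the replicate block, which called 22.3% of all genes in Treg, limma called 5 markers there: Hbb-bs, Hba-a1 and Zbtb46 higher, and Cd68 and Cd8a lower. Several of the 40 markers were not in the tables, and their part in the members' values was not tested beyond leaving out single libraries.

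**Figure D4:**
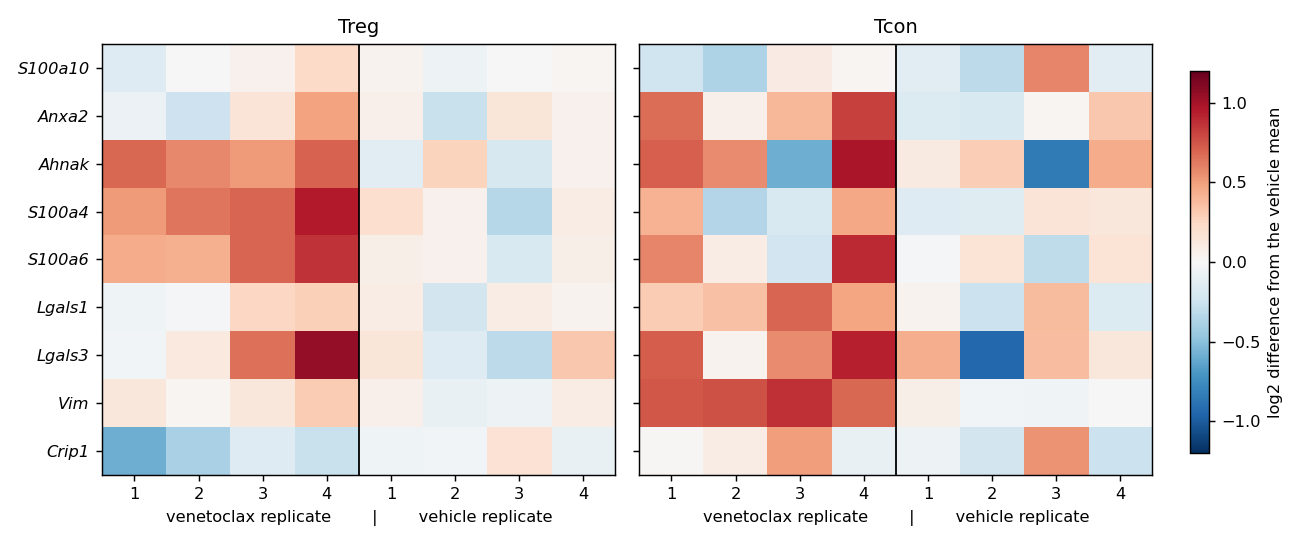
Log2 difference of each library (columns, venetoclax libraries left of vehicle libraries) from the vehicle mean of its subset, for each gene (rows), with red above and blue below. In Treg the rows of Ahnak, S100a4 and S100a6 are red across all 4 venetoclax libraries and Crip1 is blue; in Tcon all 4 venetoclax libraries of Vim, Lgals1 and Anxa2 lie above the vehicle mean, of which Vim alone has no overlap between groups, and the columns of the libraries numbered 3 differ from the rest, most in Ahnak.

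The genes outside the set whose pattern over the 8 libraries was most like the members' average were, in Treg, Fuca2, a lysosomal fucosidase (root mean square difference 0.257 SD), Cd320, a receptor for vitamin B12 carrier (0.293), Bcl2a1d, an anti-apoptotic BCL-2 family gene with near-identical copies (0.294), Rln3, a relaxin peptide (0.319), and Rbm45, an RNA-binding protein (0.344). In Tcon they were Hif1a, the oxygen-sensitive transcription factor (0.259), Sp140, a nuclear body protein (0.269), Rtn3, a reticulon (0.287), Csnk1a1, casein kinase 1 alpha (0.315), and D1Ertd622e (0.322). The median over the genes compared was 1.33 SD for 8337 genes in Treg and 1.31 SD for 8090 in Tcon. The members themselves ranged in Treg from 0.244 (Lgals3) to 1.47 (Crip1) and in Tcon from 0.396 (Anxa2) to 1.16 (Ahnak). Each member is part of the average it is compared with, which lowers its distance by construction. The members' distances therefore cannot be weighed against the median of the genes compared and do not show a shared pattern. The genes named outside the set were picked as the nearest of all genes compared, so their distances cannot be weighed against those of the members.

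Close relatives of the members were counted beside all genes, of which 19.6% were called in Treg and 6.91% in Tcon. Of 13 other S100 genes 4 were measured in each subset (S100a1, S100a3, S100a9 and S100a13), and limma, edgeR and DESeq2 called none in Treg or Tcon, where limma gave none an unadjusted p under 0.05. The median log2 change was -0.06 in Treg and 0.09 in Tcon. S100a1, S100a3 and S100a9 had few reads, with vehicle means of 21.3, 17.2 and 5.04 normalized counts in Treg and 14.9, 4.74 and 3.71 in Tcon. Their lack of calls therefore says little, and S100a13 alone was well measured (vehicle means 773 in Treg and 700 in Tcon). Of 11 other annexins 7 were measured in Treg, where Anxa4 rose (391 ± 59.2 with venetoclax, 289 ± 40.6 with vehicle, log2 0.44, limma adjusted p = 0.0221), and DESeq2 called 2. In Tcon 8 were measured and Anxa6, the most abundant of them, rose (15467 ± 788 with venetoclax, 12452 ± 606 with vehicle, log2 0.31, limma adjusted p = 0.03). Of 8 other galectin genes 5 were measured, and Lgals9, a ligand of the receptor TIM-3, fell in Treg (3537 ± 112 with venetoclax, 4118 ± 275 with vehicle, log2 -0.22, limma adjusted p = 0.0136) while limma, edgeR and DESeq2 called none in Tcon, where limma gave none an unadjusted p under 0.05. Of the 5 other LIM-only relatives of Crip1 the 2 measured, Csrp1 and Csrp2, were called by limma, edgeR and DESeq2 in neither Treg (1 with an unadjusted limma p under 0.05) nor Tcon (0).

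Genes of the actin and membrane cytoskeleton, 18 of 20 measured, went both ways in Treg, where 10.7% of all genes rose and 8.81% fell. There 3 rose, Myo1f (a class I myosin, log2 0.63), Capg (an actin-capping protein, 0.28) and Tagln2 (transgelin 2, 0.21), and 3 fell, Emp3 (-0.29), Ezr (ezrin, the membrane to actin linker, -0.23) and Sh3bgrl3 (-0.16). In Tcon, where 3.92% of all genes rose and 2.99% fell, 3 rose and none fell: Lmna (the nuclear lamin A, log2 0.81, limma adjusted p = 0.00787), Capg (0.65, limma adjusted p = 0.00142) and Plp2 (0.42, limma adjusted p = 0.0173). The median log2 change was 0.03 in Treg and 0.18 in Tcon.

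Surface genes of memory and activated T cells, 14 listed and all measured, went higher in Treg: 12 rose and none fell, where 10.7% of all genes rose, with a median log2 change of 0.64. The smallest p belonged to Il18r1, a receptor chain for interleukin-18 (2903 ± 301 with venetoclax, 1715 ± 75.2 with vehicle, log2 0.75, limma adjusted p = 7.5e-05), Il2rb (log2 0.61), Ccr6 (0.70) and Itgae, the integrin CD103 (0.73). In Tcon 1 of the 14, Il2rb, rose (4809 ± 793 with venetoclax, 2201 ± 484 with vehicle, log2 1.14, limma adjusted p = 0.00344), with a median of 0.25; 1 of 14 is near the 3.92% of all genes that rose. With the replicate block 7 of the 14 rose in Tcon, where 16.8% of all 11171 genes were called, 997 of them higher. DESeq2 called 5 higher in Tcon, where it called 12.3% of all genes, 686 of them higher. Genes of naive T cells, 11 of 12 measured, went lower in Treg, where 8.81% of all genes fell: 7 fell, with Satb1, a chromatin organizer (log2 -0.68), Actn1 (-0.32) and S1pr1, the lymph node egress receptor (-0.43), among the 4 smallest p, and 1, Il7r, rose (1.08); the median was -0.27. In Tcon 3 of the 11 fell, S1pr1 (log2 -0.42), Klf2 (-0.64) and Satb1 (-0.33), and Igfbp4 rose (1.23), with a median of -0.05, where 2.99% of all genes fell and 3.92% rose. With the replicate block 4 fell and 2 rose in Tcon, where 883 of all 11171 genes fell and 997 rose. In Treg 9 fell and 1 rose with that block, where 1099 of all 11067 genes fell and 1368 rose. These lists were chosen with earlier results of these data known, and whether they differ as lists was not tested.

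**Figure D5:**
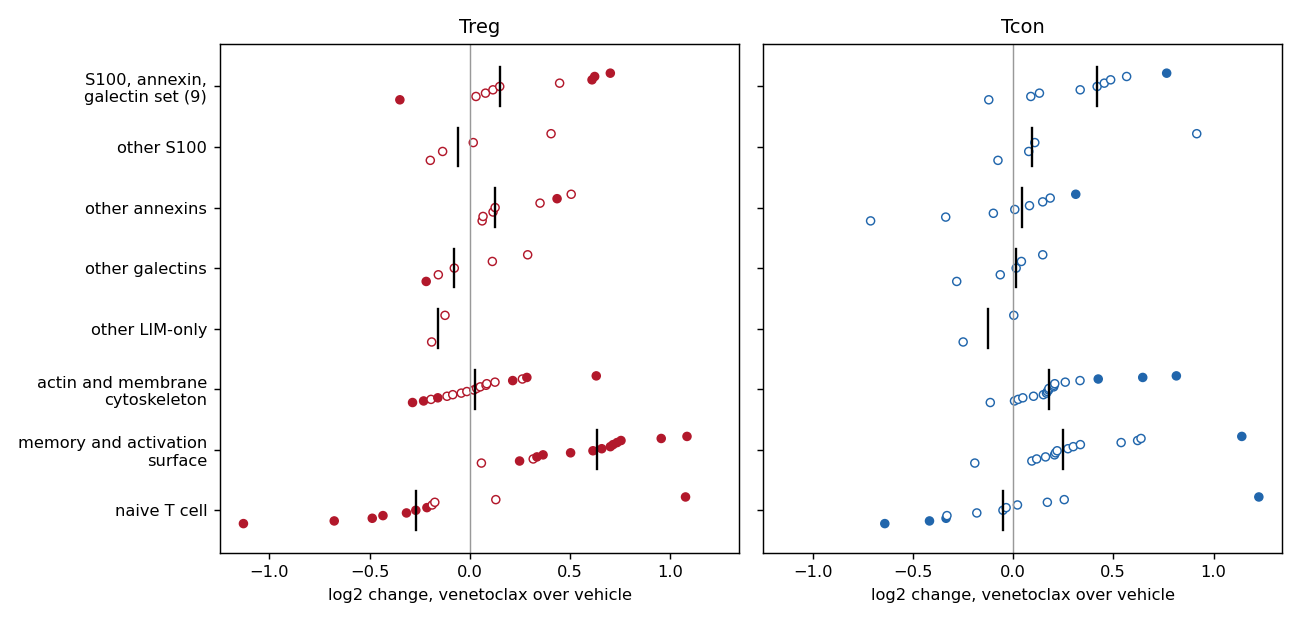
Log2 change of venetoclax over vehicle (x axis) of every measured gene of each list (rows) in Treg (left, red) and Tcon (right, blue). Filled points have a limma adjusted p under 0.05 over all genes and the black bar is the list's median; the memory and activation surface list is filled in 12 of 14 genes in Treg and in 1 of 14 in Tcon.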

How the data were processed

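Total RNA was extracted with the RNeasy Mini Plus kit and read on an Illumina NovaSeq instrument, as the labels' protocols state; mm10, HISAT2 and SAMtools are named in the submitters' processing notes. The sources used here do not give versions, the read counter, its annotation or its strand setting. The deposited columns hold, per the file headers and values, normalized signal: the authors' read count of a gene divided by 1 size factor per library. Every value was a whole multiple of its library's step within 0.01, so reads were recovered for CPM, edgeR and DESeq2. The log2 changes, the adjusted p-value and the p-value the authors deposited are quoted only as theirs.

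Exact repeats of lines (40 in Tcon, 43 in Treg) were dropped, and 18 Treg symbols that had turned into dates were restored by Entrez identifier. Log2 of the normalized count plus 1 was tested per table with limma (trended prior, two-sided), and the interaction over 16 libraries, with Benjamini-Hochberg adjustment over all genes and a threshold of 0.05. The limma tests were also run on simulated counts, drawn independently for each library. Those counts held no structure by Y-linked reads or shared code, so its effect on the tests was not checked there. Versions were R 4.3.3, limma 3.58.1, edgeR 4.0.16, DESeq2 1.42.0, Python 3.11.15, pandas 2.3.3 and matplotlib 3.10.9. Exon lengths are unions over GENCODE vM21 exons; coordinates and the promoters of 8 of the 10 members are from RefSeq on GRCm38.p6, 1-based. Each member's precision is given by its spread between libraries; Lgals3 rests on the fewest reads.

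Replicate numbers were taken to pair libraries where every same-number correlation of deviations from the group means exceeded 0.1. In Tcon these were 0.119, 0.555, 0.614 and 0.272 over 9441 genes, which meets the criterion, although venetoclax library 1 correlated better with vehicle library 2 (0.292). Other unmatched Tcon libraries also exceeded 0.1: venetoclax 1 with vehicle 4 (0.223), 2 with 4 (0.159) and 4 with 1 (0.252). The pairing by number is therefore not established. Treg and Tcon of 1 code gave 0.371 to 0.697. The main interaction nevertheless took the 16 libraries as independent, and this pairing enters only where the code is a block. Named genes are the members, for each list the genes that pass, up to 4 by smallest p per subset (all of them where 3 passed a direction), and the 5 genes per table with the pattern nearest to the members' average among genes averaging 200 normalized counts or more. Members and lists were chosen with earlier results of these data known. Alternatives were other pseudocounts, filters, scalings and tools, blocks, a Ddx3y covariate and left-out libraries. The Ddx3y covariate, upper quartile scaling and DESeq2 were run within each subset only, not for the difference.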

Additional observations from a re-analysis of the deposited data

Results flagged for a closer look

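A library far from the other 3 of its group was found in 3 of 36 groups tested (9 genes in 4 groups, by the ratio of the gap to the range), where chance flags about 1 in 20. S100a6 in vehicle Treg library 3 stood at 753.6 normalized counts, the other 3 between 882.2 and 894.1. Lgals1 in vehicle Treg library 2 stood at 2301, the other 3 between 2773 and 2857. S100a10 in vehicle Tcon library 3 stood at 5628, the other 3 between 3002 and 3413. Leaving out the first ended no call of S100a6, and the other pair of genes was not called in those subsets.

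The response of Vim to venetoclax differed between the subsets, by -0.617 on the log2 scale for Treg minus Tcon (limma adjusted p = 0.00274). It kept its sign in 15 of 15 other settings and its call in 14. The exception left out venetoclax libraries 1 and 3, a setting chosen after seeing the data. No setting for the difference used the Ddx3y level as a covariate.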

How the results depend on the processing

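All 5 calls of members within a subset held in all 18 alternatives, and no called value changed sign. In Tcon, where the main test called 1 member and 772 genes, DESeq2 called 3 members and 1371 genes, the replicate block 4 members and 1880 genes, and the fit without the libraries numbered 3 called 3 members and 1443 genes. The Ddx3y covariate gave 326 genes, and leaving out venetoclax libraries 1 and 3 gave 116. Leaving out 1 library gave 1 to 2 members and 306 to 1244 genes; without vehicle library 3 Lgals1 was the second member. In Treg the main count of 2164 genes became 1327 to 2198 with 1 library left out, 1028 without the libraries numbered 3 and 614 without venetoclax libraries 1 and 3, with 4 members each time. For the difference, the main count was 1 member and 140 genes. It was 389 genes with the shared code as a block, 43 to 149 genes with 1 code left out, 2 members without the libraries numbered 3, and 0 members and 4 genes without venetoclax libraries 1 and 3. The last fits have fewer libraries; other causes were not tested.

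In Treg the same-number correlations were -0.0395, 0.414, 0.256 and 0.385, so the number is not taken to pair libraries there; the replicate block gave 2467 genes and the same 4 members. Levels in Treg over Tcon kept their direction with TMM scaling over the 16 libraries, except Crip1 with vehicle, which overlapped (log2 0.028, and -0.047 with TMM). Lgals3 of Tcon was not tested with the filter at a mean of 50. Lgals3 had the fewest reads among the members, at 16 to 112 normalized counts, with coefficients of variation of 20.5 to 36.7%.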
